A study of Mus musculus with 14 samples.

Results

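The transcripts of 9 transcription factors that set the identity of microglia and other macrophages were examined in cultured primary microglia from TIMP2 knockout (KO) and wild-type (WT) mice. The 9 genes were taken by symbol from a table of 49315 genes: Spi1, Irf8, Runx1, Sall1, Mef2a, Mef2c, Cebpa, Maf and Tfec. Each had 1 row in the table, and all 9 were among the 15700 genes with enough reads to be tested. The study sequenced poly(A) RNA from 14 cultures, 7 from mice with a global deletion of Timp2 and 7 from WT mice, all labelled C57BL/6 and with no treatment named. Each library came from an independent isolation in which the forebrains of 5 pups, aged postnatal day 6 to 7 and of both sexes, were pooled and microglia were captured on CD11b beads before culture in serum-containing medium. The deletion is constitutive and present in every cell of the animal, so the cells made no intact TIMP2 before isolation or after it. The culture medium held serum, which the paper describes as rich in TIMP2, so TIMP2 from the medium may have reached the cultures of both genotypes. A pooled library cannot show differences between pups or between sexes.

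Microglia arise from yolk sac progenitors and share with all macrophages a core set of lineage factors. PU.1, the product of Spi1, is the ETS-family factor that opens macrophage enhancers; IRF8 binds composite sites with it, RUNX1 acts in the earliest myeloid progenitors, and C/EBPα drives myeloid commitment. SALL1 marks microglia among macrophages and helps to hold their resting program, which depends on TGF-β signalling, while MEF2A and MEF2C bind many microglial enhancers. MAF (c-Maf) restrains macrophage self-renewal and shapes tissue macrophage programs, and TFEC is a macrophage-enriched relative of MITF, TFE3 and TFEB.

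Each library held between 38875344 and 48070236 counts assigned to genes. Timp2 itself, on chromosome 11, was at 122 ± 3.14 CPM (a read count relative to the TMM-adjusted size of its library) in KO cultures (SD, n = 7) and 464 ± 36.8 in WT cultures, a log2 fold change of −1.92 (adjusted p = 1.53e-12, edgeR), and no KO culture overlapped a WT culture. Counts over the whole gene do not show which part of it the remaining KO reads cover. None of the 9 factors lies on chromosome 11. Among all 15700 genes, 3 (0.0191%) passed the threshold of an adjusted p under 0.05 and none of them was higher in KO. Summed microglial markers (18 genes, such as C1qa and Csf1r) reached 13712 to 16637 CPM in KO and 13271 to 15896 CPM in WT, so the labelled cell type was borne out by its markers in all 14 libraries. No source names the processing batch of each library, so values within batches are not given, and a batch shared by several libraries cannot be told apart from the libraries themselves.

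To compare the factors with each other, counts were divided by the summed exon length of each gene and scaled to the same total in each library (a TPM), here called the level per length. Cebpa had the highest level per length, 775 ± 74.2 (SD, n = 14 libraries), above 99.2% of all tested genes. Spi1 followed at 430.2 ± 23.0 and Maf at 319 ± 42.6. Irf8 reached 182 ± 12.1, Mef2c 96.3 ± 8.20 and Mef2a 79.0 ± 5.13. Sall1 at 50.3 ± 4.79 and Runx1 at 42.0 ± 1.94 were lower, and Tfec was the lowest at 12.7 ± 1.11, above 55.0% of tested genes. All 9 transcripts were therefore present in every library, over a range from the most abundant percentile of the transcriptome to its middle.

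Neighbours in this order were not all separated. The ranges over the 14 libraries overlapped for Spi1 and Maf, for Mef2c and Mef2a, and for Sall1 and Runx1. Within a library, however, each factor was above its next neighbour in 14 of 14 libraries, with ratios of levels per length from 1.00 to 1.55 for Sall1 over Runx1 and from 2.84 to 3.88 for Runx1 over Tfec. The place of Sall1 and Runx1 depended on the length used: with the longest annotated transcript, Runx1 was at 68.7 and Sall1 at 40.1, and no other pair changed places. That length also raised Irf8 to 296, Mef2c to 192 and Mef2a to 167, each by over 1.5 times, so the distances between factors depended on it.

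**Figure D1:**
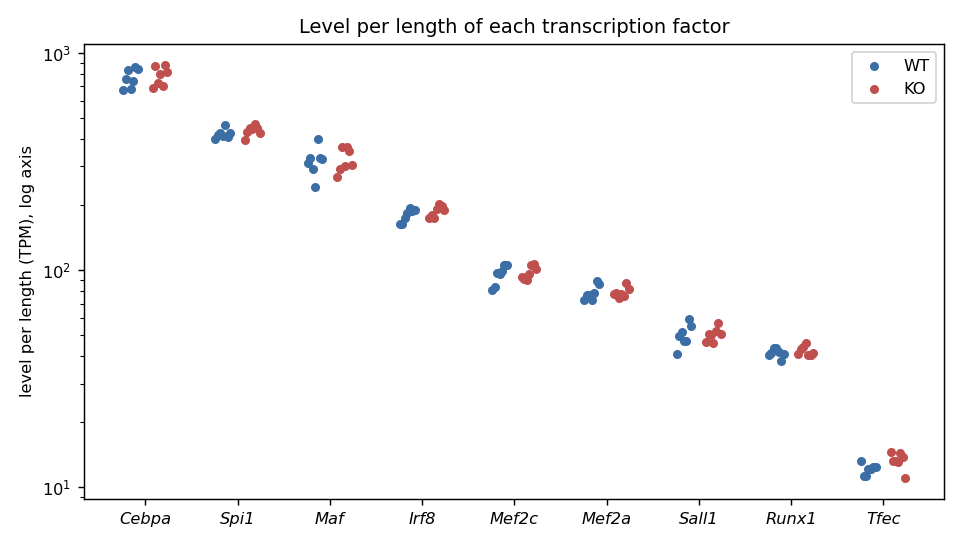
Level per length (TPM computed from the counts, log axis) of the 9 transcription factors in 7 WT (blue) and 7 KO (red) libraries, 1 point per library. Cebpa sits highest with a mean of 775 and Tfec lowest with a mean of 12.7. The ranges of both genotypes overlap for each gene, although most KO points of Tfec lie above most of its WT points.

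The comparison of KO with WT asked whether loss of TIMP2 was accompanied by a different level of any of these factors. No factor passed the threshold: 0 of 9 had an adjusted p under 0.05 in the edgeR quasi-likelihood test across all genes, where 0.0191% of genes did. All 9 had a mean higher in KO, by a log2 fold change of 0.02 to 0.15 with a median of 0.05. Over all tested genes, 50.8% had a log2 fold change above 0 and the median was 0.0016, and among the 8499 genes with a mean of at least 10 CPM 4876 were above 0. By unadjusted p under 0.05, 1 of the 9 (Tfec) was higher in KO, against 1.75% of all genes called higher and 3.37% called in either direction in the same way. DESeq2 also called 0 of 9 by adjusted p, and Tfec alone by unadjusted p. For no factor were the KO and WT libraries separated, which was the case for 0.0828% of genes.

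Among the core myeloid factors, Spi1 (chr2:91082390-91115756, forward strand, GRCm38) ranged from 353 to 427 CPM in KO with a median of 411, and from 362 to 419.6 in WT with a median of 387. The groups overlapped, with 2 KO cultures above the highest WT culture and KO replicate 1 the lowest of all 14 libraries. The means were 404 ± 24.8 and 384 ± 18.8 CPM (SD, n = 7 each; exact permutation p = 0.130, two-sided), a log2 fold change of 0.07 (SE 0.0422, adjusted p = 0.943), and the 95% interval of the difference ran from −1.23% to 11.9%.

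Irf8 (chr8:120736358-120756694, forward strand) ranged from 404 to 474 CPM in KO, with a median of 459, and from 392 to 453 in WT, with a median of 427. Of the 7 KO cultures, 4 were above the highest WT culture, while the lowest KO culture lay within the WT range. The log2 fold change was 0.08 (SE 0.0439, adjusted p = 0.943; exact permutation p = 0.104), with an interval of −0.887% to 12.9%. Runx1 (chr16:92601466-92826149, reverse strand) ranged from 163 to 193 CPM in KO, median 172, and from 151 to 177 in WT, median 171. Here 3 KO cultures were above the WT range and 4 lay within it. Its log2 fold change was 0.06 (SE 0.0437, adjusted p = 0.943), with an interval of −2.47% to 11.0%. Cebpa (chr7:35119293-35121928, forward strand), a gene of a single exon, ranged from 599 to 789.6 CPM in KO and from 591 to 751 in WT, with medians of 738 and 685. The range in each genotype spanned far more than the distance between their means, and the log2 fold change was 0.05 (SE 0.0743, adjusted p = 0.951), with an interval of −7.20% to 15.6%. Leaving out 1 library moved it between 0.02 (without WT replicate 4) and 0.08 (without KO replicate 1).

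The factors most closely tied to the microglial program in the brain did not differ beyond their spread either. Sall1 (chr8:89027235-89044162, reverse strand) ranged from 81.1 to 103 CPM in KO, median 91.6, and from 74.9 to 103 in WT, median 89.2. No KO culture exceeded the highest WT culture, and the log2 fold change was 0.04 (SE 0.0669, adjusted p = 0.962), with an interval of −7.10% to 13.2%. It was 0.0012 without WT replicate 1 and 0.07 without WT replicate 6. Mef2a (chr7:67231163-67372858, reverse strand) ranged from 372 to 434 CPM in KO, median 396, and from 353 to 431 in WT, median 383. Its log2 fold change of 0.02 (SE 0.0476, adjusted p = 0.966) was the smallest of the 9, with an interval of −5.26% to 9.06%, and it turned slightly negative without KO replicate 6 (−0.00032) or without WT replicate 4 (−0.0023). Mef2c (chr13:83504034-83667080, forward strand) ranged from 482 to 569 CPM in KO, median 525, and from 441 to 561 in WT, median 512. Its 2 lowest cultures were both WT, but 4 of 7 KO cultures lay above the WT median, and the log2 fold change was 0.05 (SE 0.0571, adjusted p = 0.943), with an interval of −4.56% to 13.0%.

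Maf (chr8:115682942-115707794, reverse strand) varied most. It ranged from 735 to 1065.5 CPM in KO, with a median of 865, and from 653 to 1097 in WT, with a median of 888.5. Both the lowest and the highest of the 14 libraries were WT, at replicates 4 and 5. The mean was higher in KO and the median was higher in WT. The log2 fold change was 0.05 (SE 0.101, adjusted p = 0.968), with the widest interval of the 9, −11.0% to 19.9%, and it was −0.016 without WT replicate 4 and 0.11 without WT replicate 5.

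Tfec (chr6:16833373-16898441, reverse strand) had the largest difference of the 9. It ranged from 21.2 to 26.9 CPM in KO, with a median of 26.1, and from 21.2 to 25.8 in WT, with a median of 22.6. Of the 7 KO cultures, 6 lay between 25.4 and 26.9 CPM, whereas 6 of the 7 WT cultures lay between 21.2 and 23.5. KO replicate 7, the lowest library of all, and WT replicate 1 were the exceptions. The means were 25.5 ± 1.95 and 22.9 ± 1.51 CPM (SD, n = 7 each; exact permutation p = 0.0239, two-sided), a log2 fold change of 0.15 (SE 0.0541) with an interval of 2.70% to 20.5%. This did not survive adjustment over all genes (adjusted p = 0.943), and over the 20 alternative settings the adjusted p ran from 0.574 to 1.00. With 839 to 1218 reads per library Tfec was also the least deeply counted of the 9, with a counting error of 3.09% per library, against 0.508% for Maf.

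Exons of Mef2a share 302 bases with Lysmd4 on the opposite strand, and those of Runx1, Cebpa and Maf share 106, 51 and 440 bases with antisense RNAs. Those partners averaged 377 counts per library for Lysmd4 and 0 to 44.7 for the antisense RNAs, against 7446 or more for the 4 factors, and the strand setting of the counting is not given in the sources used here, so a few reads may be assigned to the wrong partner.

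**Figure D2:**
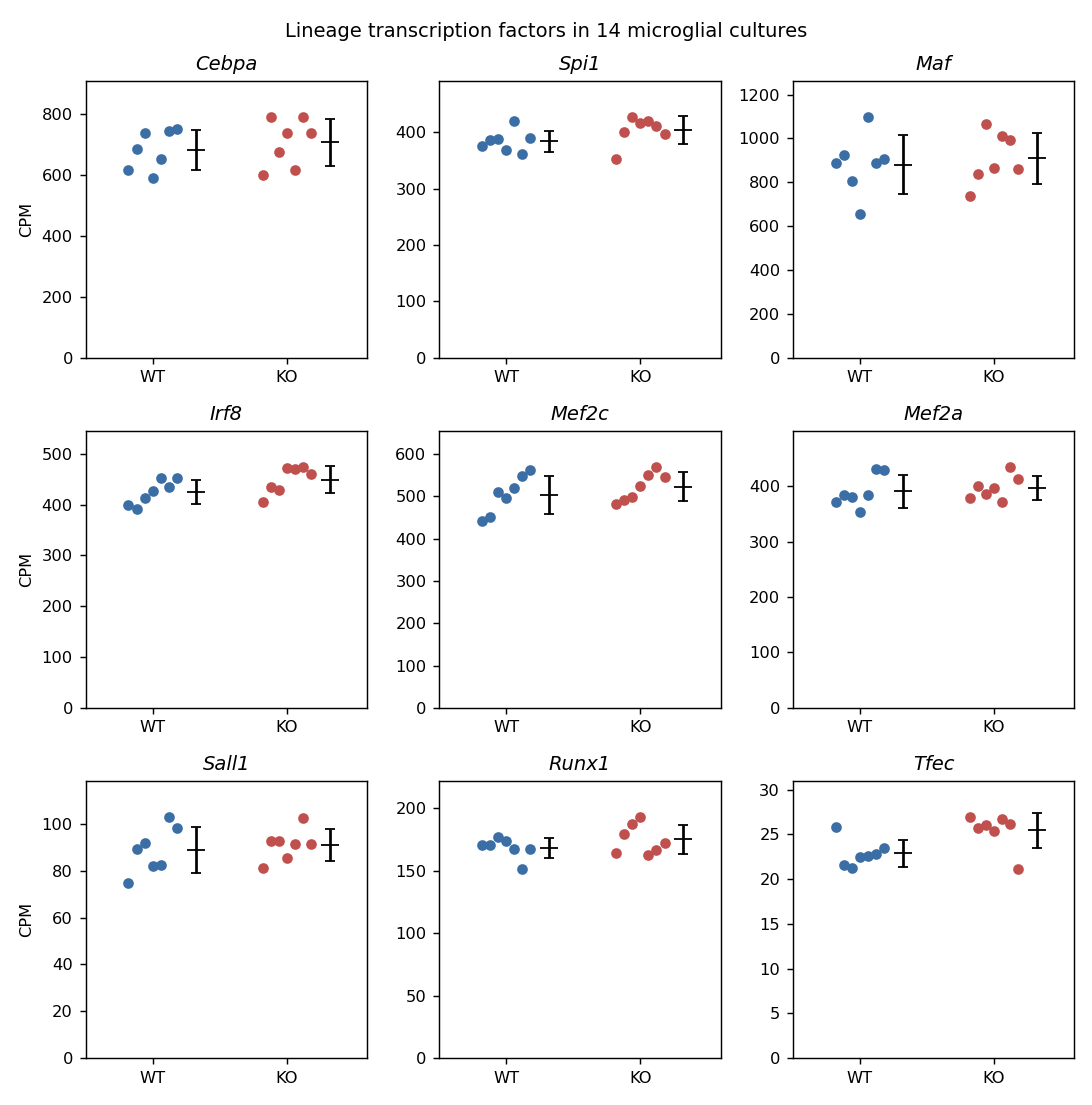
CPM of each factor in every library, with WT in blue and KO in red, points ordered by replicate number, which carries no time or dose, and black bars giving the mean and SD of 7 libraries. The 2 genotypes overlap in every panel, and for Tfec 6 KO cultures lie between 25.4 and 26.9 CPM, with KO replicate 7 at 21.2.

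**Figure D3:**
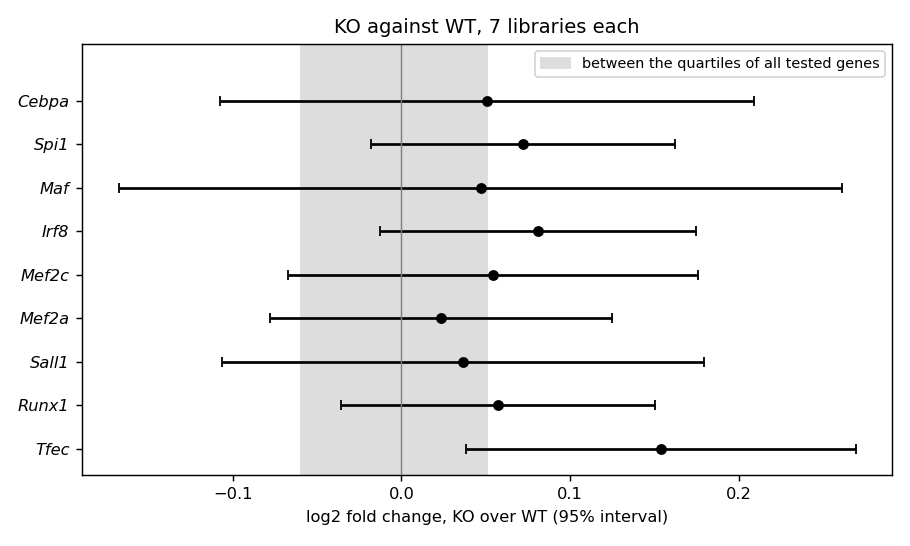
Log2 fold change of KO over WT for each factor with its 95% interval from edgeR, beside the range between the quartiles of all 15700 tested genes (grey). All 9 points lie between 0.02 and 0.15, and the Tfec interval is the only one that leaves out 0, without adjustment for the number of genes tested.

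Several of the factors have close relatives that can bind the same sites, so the share of each gene in the summed level per length of its family was computed for each genotype. Spi1 made up 99.9% of the PU.1 family in KO and in WT, since its relatives Spib and Spic were near 0. Runx1 held 99.1% ± 0.336 (SD, n = 7) of the RUNX transcripts in KO and 99.0% ± 0.513 in WT. Sall1 held 71.9% ± 2.30 and 72.1% ± 2.48 of the SALL family, with most of the remainder from Sall3. Cebpa held 79.6% ± 4.33 and 80.1% ± 2.10 of the C/EBP family, ahead of the inflammation-induced Cebpb with 12.7% ± 4.98 and 12.2% ± 2.40.

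Other families were shared more evenly. Mef2c made up 34.7% ± 1.75 and 34.3% ± 1.95 of the MEF2 family, Mef2a 28.2% ± 0.609 and 28.5% ± 1.25, and Mef2d 37.0% ± 1.74 and 37.2% ± 2.49. This order depended on the gene length used: with the longest transcript Mef2c held 42.6%, Mef2a 37.1% and Mef2d 20.3% over the 14 libraries. Irf8 was the third of the 6 IRF genes listed, with 20.8% ± 2.13 in KO and 20.9% ± 2.07 in WT, behind Irf5 and the interferon-induced Irf7, but the second with the longest transcript, at 28.9%. Tfec was the minor member of its family at 8.38% ± 0.697 in KO and 7.79% ± 0.615 in WT, behind Tfe3, Mitf and Tfeb, and 8.41% over the 14 libraries with the longest transcript. No gene of these families passed the adjusted threshold between genotypes. Spic, the ETS factor of iron-recycling macrophages, had a log2 fold change of 0.70 (SE 0.239, adjusted p = 0.943) on 10 to 37 reads per library.

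**Figure D4:**
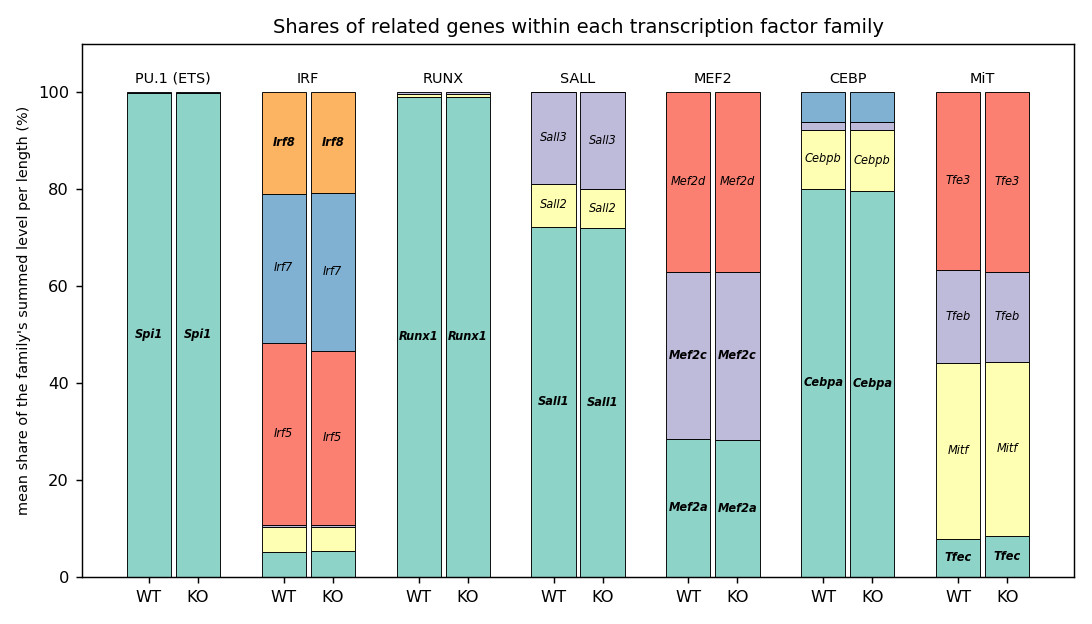
Mean share (%) of each gene in the summed level per length of its family, as stacked bars for WT and KO (7 libraries each), with 8 of the 9 factors in bold (Maf is not drawn). Spi1 and Runx1 fill their families, at 99.9% and about 99% of the total, whereas Tfec takes 7.79% in WT and 8.38% in KO.

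Other genes of the same regulatory circuit were read from lists. Of 11 tested genes for upstream signals (CSF1, IL-34 and TGF-β ligands, receptors and SMADs), 11 had a mean higher in KO and 0 passed the threshold (2 had an unadjusted p under 0.05). Over all tested genes, 50.8% had a higher mean in KO and 3.37% had an unadjusted p under 0.05. The median of the 11 log2 fold changes was 0.04. The GM-CSF receptor chains Csf2ra (286 ± 14.4 CPM in KO, 260 ± 12.6 in WT; log2 fold change 0.14, SE 0.0379) and Csf2rb (358 ± 21.3 and 325 ± 23.4; 0.14, SE 0.0489) had the smallest unadjusted p values of the list, both with an adjusted p of 0.943. The paper, whose model held a batch term, names Csf2ra among genes behind the pathways enriched in its own differentially expressed genes. Csf1r, the receptor on which microglia depend for survival, was at 2817 ± 375 CPM in KO and 2537 ± 264 in WT (log2 fold change 0.15, SE 0.0855, adjusted p = 0.943). The TGF-β receptor Tgfbr1 was nearly level, at 221 ± 29.7 and 218 ± 28.8 CPM. Il34 was too low to test.

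Of 34 tested other myeloid and family transcription factors, 26 had a higher and 8 a lower mean in KO, and 0 passed the threshold (2 had an unadjusted p under 0.05), against 50.8% higher and 3.37% under that p over all tested genes. The median of their log2 fold changes was 0.05. Rxra, a nuclear receptor partner, had the smallest unadjusted p among them, with 281 ± 9.71 CPM in KO and 261 ± 14.3 in WT (log2 fold change 0.11, SE 0.0355, adjusted p = 0.943). Ikzf1, a lymphoid and myeloid zinc finger factor, was at 170.1 ± 13.7 and 159 ± 12.5 CPM, while Zeb2, a zinc finger repressor expressed in macrophages, was at 494 ± 38.3 and 477 ± 21.2 CPM.

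Of 20 macrophage genes downstream of PU.1 and its partners, 18 had a higher and 2 a lower mean in KO, and 0 passed the threshold (1 had an unadjusted p under 0.05, near the 3.37% of all tested genes, of which 50.8% were higher). The median of their log2 fold changes was 0.06. Among the genes with a mean of at least 10 CPM, 4876 of 8499 were higher in KO. Csf1r, Itgam, Cx3cr1, Tyrobp and Aif1 are also among the microglial markers, and Csf1r among the upstream signals. The counts of these lists are therefore not separate observations. Csf3r, the G-CSF receptor, was at 264 ± 12.1 CPM in KO and 239 ± 13.9 in WT (log2 fold change 0.15, SE 0.0394, adjusted p = 0.943). Lysozyme, Lyz2, was at 6481 ± 823 and 6066 ± 871 CPM, and the protease gene Ctss at 2628 ± 293 and 2467 ± 113.

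Transcripts of other cell types were low and varied between cultures. The 10 astrocyte markers, Gfap and Aqp4 among them, were all lower on average in KO (median log2 fold change −0.66, 0 past the threshold), and their sum ranged from 33.9 to 153 CPM in KO and from 38.9 to 295 in WT. Of 10 neuron markers 9 were lower in KO, with sums of 23.8 to 55.0 CPM in KO and 29.6 to 64.2 in WT. Of the oligodendrocyte lineage markers, 7 of 9 tested were lower in KO, with sums of 146 to 189 and 153 to 207 CPM, and 4 of 4 tested fibroblast markers were lower, with sums of 2.33 to 14.997 and 3.49 to 21.5 CPM. The 10 proliferation genes were all lower in KO on average (median log2 fold change −0.12), with sums of 53.7 to 212 and 97.7 to 190.2 CPM. Of 18 microglial markers, 15 had a higher mean in KO, and the median over the list was 0.04 on the log2 scale, close to that of the 9 factors. In bulk RNA, fewer cells of a type and less RNA per cell cannot be told apart, and the part of these cells in the small positive fold changes of the 9 factors was not tested.

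Border macrophage markers summed to 534 to 843 CPM in KO and 481 to 921 in WT, mostly from Mrc1, with Lyve1 near 0; 5 of 7 tested had a higher mean in KO (median log2 fold change 0.13, 0 past the threshold). Markers of monocytes and neutrophils summed to 4.49 to 21.8 and 2.53 to 14.4 CPM, with Ly6c2 and Ly6g near 0. The 3 that could be tested had a higher mean in KO (median log2 fold change 0.91, 0 past the threshold), with S100a8 at 0.91 (SE 0.699) and S100a9 at 1.03 (SE 0.798, 1 to 457 reads per library). Of 7 endothelial and mural markers, 4 had a higher mean in KO (median 0.11, 0 past the threshold), and their sums were 46.1 to 66.5 and 36.6 to 57.6 CPM. The part of these cells in the fold changes of the 9 factors was not tested either.

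The stability of each factor was then taken as the SD of its log2 CPM between cultures of the same genotype. Spi1 (0.0817), Irf8 (0.0851), Runx1 (0.0854) and Mef2a (0.0927) were the steadiest, and Spi1 and Irf8 differed by a factor of no more than 1.21 between the lowest and the highest of 14 libraries. Tfec (0.106) and Mef2c (0.114) were intermediate, but the place of Tfec rested on KO replicate 7, without which its SD was 0.0714, the lowest of the 9. Sall1 (0.136), Cebpa (0.151) and Maf (0.208) were the most variable, with Maf spanning a factor of 1.68. Counting error was below this spread for each of the 9. Among tested genes with a mean of at least 10 CPM, the spread of Spi1 was at the 50.4th percentile and that of Maf at the 91.0th, and among all 15700 tested genes, many of them lowly expressed, they were at the 27.6th and the 59.5th. Spi1, Irf8, Runx1, Mef2a, Tfec, Mef2c and Sall1 lay below the median spread of all tested genes and Cebpa and Maf above it, while all 9 lay above the median of the genes with at least 10 CPM.

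Single cultures accounted for many of the extremes. KO replicate 1, the library with the fewest reads, was the lowest KO library for 6 of the 9 factors and had a median deviation of −0.15 on the log2 scale. It was at the same time the highest of all 14 libraries for Tfec. KO replicate 6 was the highest of all 14 libraries for 4 factors, Irf8, Mef2a, Mef2c and Cebpa, and WT replicate 4 was the lowest for 3, Mef2a, Cebpa and Maf. Without KO replicate 1 the median log2 fold change of the 9 factors was 0.08, over 1.5 times the value with all libraries, and without KO replicate 6 it was 0.03. In both cases 0 of 9 passed the threshold.

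The factors were also compared with each other across the 14 cultures, after the mean of each genotype had been removed, to ask which of them varied together. Of 36 pairs, 5 had a Pearson correlation with a Benjamini-Hochberg adjusted permutation p under 0.05, all of them positive. Irf8 and Mef2c were the closest, with r = 0.86 (permutation p = 0.00036, adjusted p = 0.00954) and Spearman's rho = 0.85 (adjusted p = 0.00912). The correlation was 0.89 within KO and 0.86 within WT, and 0.82 without the 2 libraries farthest from the median of Irf8. Mef2a and Cebpa followed with r = 0.82 (permutation p = 0.00053, adjusted p = 0.00954) and rho = 0.85 (adjusted p = 0.00702), and r remained 0.82 without the 2 farthest libraries.

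Sall1 joined the second pair. Its correlation with Mef2a was r = 0.78 (permutation p = 0.00304, adjusted p = 0.0222), although rho = 0.70 did not pass (adjusted p = 0.0891), and r was 0.74 without the 2 farthest libraries. With Cebpa it reached r = 0.73 (permutation p = 0.00309, adjusted p = 0.0222) and rho = 0.83 (adjusted p = 0.00702), with 0.71 without the 2 farthest. Spi1 and Maf formed a separate pair with r = 0.76 (permutation p = 0.00162, adjusted p = 0.0194) and rho = 0.77 (adjusted p = 0.0232). That relation rested in part on KO replicate 1 and WT replicate 5, without which r was 0.54. Spi1 and Irf8, whose proteins bind together, had r = 0.53 (permutation p = 0.0604, adjusted p = 0.272), and −0.10 without the same 2 libraries. Runx1 and Tfec took part in no pair past the threshold. All these values come from the same 14 libraries and share their depth and scaling, and a shared processing day or batch was not tested. The permutations treated the libraries of a genotype as independent. With the replicate number added to the KO against WT test, the SE fell from 0.0439 to 0.0250 for Irf8. For Mef2c it fell from 0.0571 to 0.0277 and for Sall1 from 0.0669 to 0.0306. Same-number libraries may therefore not be independent, and the permutation p values may be too small.

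The promoter windows of the 2 closest pairs are given because these genes varied together. The windows are those of RefSeq at each gene's outermost start (GRCm38.p6), each from 250 bases before to 50 after the start and read in the direction of transcription. Capitals mark matches, on either strand, to any of 8 motifs of the factors' families: GAGGAA and the longer GAGGAAGT for PU.1, GGAA and GAAA with 2 bases between them for an ETS and IRF composite, CTA and TAG with 4 bases between them for MEF2, TGTGGT for RUNX, TTGCNNAA for C/EBP, CACGTG for the MiT family and TGCTGAC for MAF. GAGGAAGT contains GAGGAA. The Irf8 window is chr8:120736108-120736407 (forward strand), the Mef2c window chr13:83503784-83504083 (forward), the Mef2a window chr7:67372809-67373108 (reverse) and the Cebpa window chr7:35119043-35119342 (forward).
Irf8: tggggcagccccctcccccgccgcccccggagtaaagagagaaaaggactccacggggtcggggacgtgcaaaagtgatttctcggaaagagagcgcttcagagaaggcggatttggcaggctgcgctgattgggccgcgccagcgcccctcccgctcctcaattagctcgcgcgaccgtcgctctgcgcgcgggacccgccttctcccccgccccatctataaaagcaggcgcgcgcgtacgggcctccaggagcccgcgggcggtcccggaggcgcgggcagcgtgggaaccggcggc
Mef2c: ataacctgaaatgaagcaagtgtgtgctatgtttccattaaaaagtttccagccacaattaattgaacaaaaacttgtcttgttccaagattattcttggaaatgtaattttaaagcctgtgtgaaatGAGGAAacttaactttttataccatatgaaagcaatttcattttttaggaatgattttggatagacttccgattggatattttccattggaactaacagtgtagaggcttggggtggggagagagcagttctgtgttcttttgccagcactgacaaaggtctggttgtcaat
Mef2a: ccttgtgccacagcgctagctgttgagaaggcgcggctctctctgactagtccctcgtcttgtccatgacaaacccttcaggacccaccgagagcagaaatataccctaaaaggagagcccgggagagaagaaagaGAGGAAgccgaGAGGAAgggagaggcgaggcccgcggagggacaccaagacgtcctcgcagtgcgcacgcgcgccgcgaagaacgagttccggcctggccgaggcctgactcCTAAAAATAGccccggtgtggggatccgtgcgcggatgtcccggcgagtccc
Cebpa: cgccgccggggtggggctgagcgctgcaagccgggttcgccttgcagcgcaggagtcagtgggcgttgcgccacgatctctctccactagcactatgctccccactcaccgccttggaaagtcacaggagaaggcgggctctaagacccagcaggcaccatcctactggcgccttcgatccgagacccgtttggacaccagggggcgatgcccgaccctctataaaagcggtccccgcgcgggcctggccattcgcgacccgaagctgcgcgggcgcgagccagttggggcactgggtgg
The Irf8 and Cebpa windows, with 70% and 67.3% G and C, held none of the 8 motifs. The Mef2c window, at 35.7% G and C, held 1 GAGGAA, and the Mef2a window, at 62.3%, held 2 GAGGAA and 1 MEF2 motif. Over all 32851 mouse windows of the same length, GAGGAA was found in 28.3% and the MEF2 motif in 3.69%. Neither pair shared a motif from this set, and a match or its absence in such a window is a description of letters only. Windows were present for 7 of the 9 factors. In the others, Runx1 held 2 RUNX motifs and 1 CACGTG in its distal window and 1 GAGGAA in its proximal window, Tfec held 1 RUNX motif and 1 GAGGAA, and Sall1 held none in 3 windows. Irf8 and Mef2c also had windows at inner starts. The Mef2c window at chr13:83523406-83523705 (forward) held 1 GAGGAA. The last Mef2c window and the inner Irf8 window held none of the motifs.

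Against the summed markers of cell types, 3 of 81 correlations passed the adjusted threshold. Maf correlated with the border macrophage markers at r = 0.81 (permutation p = 0.0005, adjusted p = 0.0243) and rho = 0.86 (adjusted p = 0.0081), with 0.68 when KO replicate 3 and WT replicate 5 were left out. The relation was present in both genotypes, at 0.86 within KO and 0.79 within WT. Maf was in turn negatively correlated with the astrocyte markers, at r = −0.81 (permutation p = 0.00107, adjusted p = 0.0289) and rho = −0.79 (adjusted p = 0.0529), with −0.76 without the 2 farthest libraries. Mef2c correlated with the microglial markers at r = 0.78 (permutation p = 0.0006, adjusted p = 0.0243) and rho = 0.79 (adjusted p = 0.0462), with 0.66 without the 2 farthest. For Irf8 the correlation with the microglial markers was r = 0.74 (permutation p = 0.00419, adjusted p = 0.0603) and with the neuron markers r = −0.75 (permutation p = 0.00447, adjusted p = 0.0603). Maf came closer to the threshold with the low fibroblast markers, at r = −0.74 (permutation p = 0.00278, adjusted p = 0.0563). With the neuron markers Maf had r = −0.67 (adjusted permutation p = 0.0873), and with the endothelial and mural markers r = 0.56 (adjusted permutation p = 0.185). Maf, the factor with the widest spread, was the only one of the 9 past the threshold with a list other than the microglial markers. Whether its spread comes from the make-up of the cultures was not tested.

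**Figure D5:**
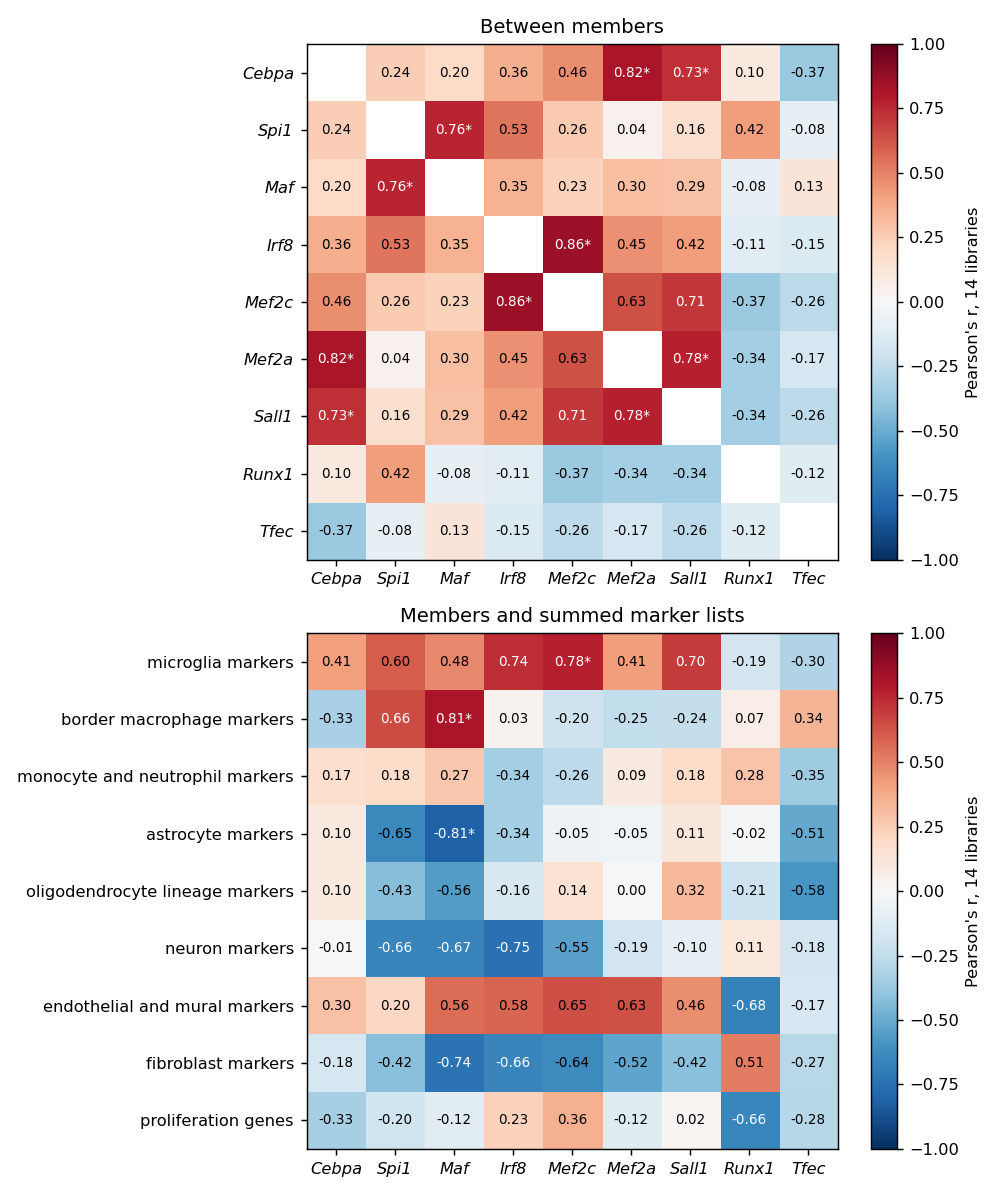
Pearson's r over 14 libraries of log2 CPM with genotype means removed, between the 9 factors (top) and between each factor and the log2 summed CPM of marker lists (bottom), with an asterisk where the adjusted permutation p was under 0.05. Irf8 with Mef2c (0.86), the trio of Cebpa, Mef2a and Sall1, and Spi1 with Maf stand out among factors, and Maf shows 0.81 with border macrophage and −0.81 with astrocyte markers.

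Finally, the tested genes with a mean of at least 10 CPM whose pattern over the 14 libraries was most like that of each factor were listed, again with genotype means removed and as a description. Maf was closest to Rnf213 (r = 0.97) and Nup98 (0.97), and Spi1 to Irf2 (0.97), itself an interferon regulatory factor, and Otud5 (0.96). Mef2c was closest to Gpr183 (0.96), an oxysterol receptor of immune cells, and Abhd12 (0.94). Irf8 was closest to Baiap2 (0.94) and Rsf1 (0.93). Mef2a was nearest to Lamtor4 (0.93) and Tmem64 (0.92), Runx1 to Hist3h2a (0.92) and Shisa5 (0.91), and Sall1 to Mtus1 (0.92) and the calcium channel gene Cacna1d (0.87). Cebpa with Tmem160 (0.89) and Sh2b2 (0.88) and Tfec with Pmvk (0.89) and Gnai3 (0.84) had the least close neighbours. None of these 18 genes differed between genotypes past the threshold, and none was another of the 9 factors.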

How the data were processed

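Poly(A) RNA from 14 cultures of primary microglia (7 KO, 7 WT) was sequenced by the authors. Submitters' processing notes name Trimmomatic 0.36, STAR 2.5.2b, featureCounts from Subread 1.5.2, DESeq2 and GRCm38. The table as deposited holds unnormalised read counts for each gene. The annotation release and the strand setting are not given in the sources used here. Library numbers in the table were matched to samples by their labels.

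Genes were named and measured with GENCODE vM21 (GRCm38; 49056 of 49315 matched). Counts were scaled with TMM factors and tested with edgeR 4.0.16 in R 4.3.3 (quasi-likelihood, filterByExpr with a minimum count of 10, genotype as the only term), with Benjamini-Hochberg adjustment over 15700 genes and a threshold of 0.05. The study's methods include a batch term, which could not be used because batches are not named. DESeq2 1.42.0 was an alternative. Scripts were tested on simulated counts. CPM used TMM library sizes, with a prior count of 1 on the log2 scale. Exact permutation tests used all 3432 splits, which allow a p of 0.000583 at the lowest. Correlations used 100000 permutations within genotype, which take the libraries of a genotype as independent, with adjustment over 36 and 81 relations. P-values measure the spread between pooled isolations. Intervals of counting error cover counting only. The main fit did not use replicate numbers as pairs. Same-number correlations between KO and WT libraries ran from −0.20 to 0.74. With the replicate number added to the edgeR test, the SE fell from 0.0669 to 0.0306 for Sall1 and from 0.0541 to 0.0522 for Tfec. Genes with an unadjusted p under 0.05 in edgeR rose from 529 to 921 with that term. Whether same-number libraries shared a batch was not tested.

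The 9 factors, all gene lists and the motifs were chosen with earlier results of these data known. Named genes were the 9 factors, genes of their families, and from each other list up to 5 with the smallest unadjusted p and up to 3 with the highest CPM. Alternatives were other scalings, no filter, DESeq2, a replicate block, another gene length (for family shares, chosen after seeing the data) and leaving out each library. Some genes of these lists are not reported here.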

Additional observations from a re-analysis of the deposited data

Results flagged for a closer look

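Of 18 groups of 7 libraries (9 factors in each genotype), 3 held a library that stood apart from the others by Dixon's criterion, which chance meets in about 1 of 20 groups. Spi1 in KO replicate 1 was at 353 CPM, with the next KO library at 397. Runx1 in WT replicate 6 was at 151 CPM, with the next WT library at 168. Tfec in KO replicate 7 was at 21.2 CPM, with the next KO library at 25.4. Without KO replicate 7 the Tfec log2 fold change was 0.19 (edgeR, adjusted p = 0.574), and without KO replicate 1 that of Spi1 was 0.10 (edgeR, adjusted p = 0.712). The cause of these values was not tested.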

How the results depend on the processing

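Under the 20 alternatives, 0 of the 9 factors passed the adjusted threshold, and all 9 log2 fold changes stayed above 0 under every other scaling, filter, tool and block. Leaving out single libraries moved the count above 0 to between 7 and 9 and the median of the factors to between 0.03 (without KO replicate 6) and 0.08 (without KO replicate 1). Mef2a was at −0.00032 without KO replicate 6 and −0.0023 without WT replicate 4, and Maf at −0.016 without WT replicate 4; their highest values with a library left out were 0.048 and 0.11. The 3 genes past the threshold became 16 with DESeq2 and 26 with DESeq2 and a replicate block (3 to 4 with a library left out). With edgeR and the replicate block 3 genes passed, the median of the factors was 0.06, and Irf8 reached an unadjusted p of 0.0105 (adjusted p = 0.771). Only 1 of the 7 KO libraries correlated best with the WT library of its own number. With DESeq2 and the replicate block, Irf8 had an unadjusted p of 0.00793 (adjusted p = 0.855). Unadjusted p values under 0.05 were also seen for Spi1 and Irf8 without KO replicate 1 or WT replicate 5, and for Irf8 without WT replicate 7. Under RLE size factors the correlation of Runx1 with astrocyte markers was 0.0079 and that of Cebpa with neuron markers 0.017, both with the sign turned and neither past the threshold. With the longest transcript as the length, 8 of 9 levels per length moved by more than their SD; family shares under that length, an alternative chosen after seeing the data, placed Mef2d last rather than first among the 3 expressed MEF2 genes. Leaving out 1 library moved the log2 fold changes of Runx1, Sall1, Mef2a, Mef2c, Cebpa and Maf by over 1.5 times, with 0 past the threshold in each case. Depth did not limit the 9 factors, whose counts were at least 839 in each library. In the fit with genotype alone the spread between cultures did, with intervals that leave room for differences of up to 9.06% to 20.5%. The SE of each factor was smaller with edgeR and the replicate block. It fell from 0.0439 to 0.0250 for Irf8 but only from 0.0541 to 0.0522 for Tfec. With DESeq2 the replicate block raised the SE of Tfec from 0.0583 to 0.0670 and that of Maf from 0.1016 to 0.1035. It lowered the SE of each other factor. The causes of these shifts were not tested.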
